A study of Mus musculus with 4 samples.

Results

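Ugdh, Abcc1, Abcc3 and Abcc5, an enzyme gene of glucuronide supply and 3 genes of export pumps, were taken by gene name from a table of Nrf2 binding near 1940 mouse genes. The 4 genes held 5 of the 1727 peak-caller intervals that this table lists under genes. Chromatin bound by an Nrf2 antibody had been sequenced (ChIP-seq) from esophagus of Keap1KO (Keap1 knockout), Nrf2KO (Nrf2 knockout) and wild-type mice, all of strain C57BL/6 by their labels, with 1 library for each of the 3 genotypes. A pooled input DNA library was not used here. The labels name neither the alleles, nor the cells in which a gene was deleted, nor the age and number of animals behind a library, and heights of binding do not check the labelled tissue.

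Nrf2 (gene symbol Nfe2l2) pairs with a small Maf protein and binds the antioxidant response element, a short DNA sequence near genes of detoxification. Keap1 holds Nrf2 and hands it to a ubiquitin ligase, so that loss of Keap1 lets Nrf2 accumulate, and tissue without Nrf2 shows what the antibody brings down without its target. Glucuronidation joins a glucuronic acid group to a drug, hormone or dietary compound. UDP-glucose dehydrogenase (Ugdh) makes the activated sugar for it, UDP-glucuronosyltransferases (Ugt enzymes) attach it, and pumps of the Abcc family carry conjugates out of the cell.

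All 5 intervals were called in the Keap1KO library, and the 4 genes had no interval called in Nrf2KO or wild-type. That pattern was the usual one in the table. Of all 1460 loci (an active region, or several listed under exactly the same genes), 99.2% were called in Keap1KO, 0 were called in Nrf2KO and 3.77% in wild-type. Each of the 5 intervals was listed under a single gene, so no value here is shared with a neighbour. Single libraries allow no test between genotypes, the variation between animals is unmeasured, and sequencing depth is unknown. More cells with bound Nrf2, more Nrf2 bound per cell and a deeper library cannot be told apart.

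The intervals lay outside the first kilobase around the gene starts. Positions are in the mm10 build (GRCm38), and the table says whether an interval is inside a gene or beside it but names no exon or intron. Ugdh (GeneID 22235, chromosome 5, 65413221 to 65435842, minus strand) is 22.6 kb long and held an interval 7314 bp into the gene at position 65428528. Its second interval, at position 65415920, lay 19922 bp from the start and 2699 bp short of the gene's end, 12.6 kb from the first. The nearest other protein-coding gene of the RefSeq table, Lias, lay 5.5 kb from that second interval.

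Abcc1 (GeneID 17250, chromosome 16, 14361558 to 14474878, plus strand) encodes multidrug resistance protein Mrp1, which exports glutathione and glucuronide conjugates. Its interval at position 14352832 lay 8726 bp upstream of the start and was the only one of the 5 outside its gene. Of the 681 pairs of a gene and an interval upstream of it, 84 (12.3%) were more than 8 kb from the start, and the farthest was at 10586 bp. No other protein-coding gene of the RefSeq table lay closer to this interval than Cep20, at 34.6 kb.

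Abcc3 (GeneID 76408, chromosome 11, 94343295 to 94392976, minus strand) encodes Mrp3, a pump for glucuronides and bile salts. Its interval at position 94390944 was the closest to a start, 2032 bp into a gene of 49.7 kb. Abcc5 (GeneID 27416, chromosome 16, 20331303 to 20426394, minus strand) encodes Mrp5, a pump for nucleotide analogs, cyclic nucleotides and heme. Its interval at position 20371904 lay 54490 bp into the gene, past the middle of its 95.1 kb. Of the 1190 pairs of a gene and an interval in it, 30.3% were more than 50 kb from the start, so this depth was not rare.

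**Figure D1:**
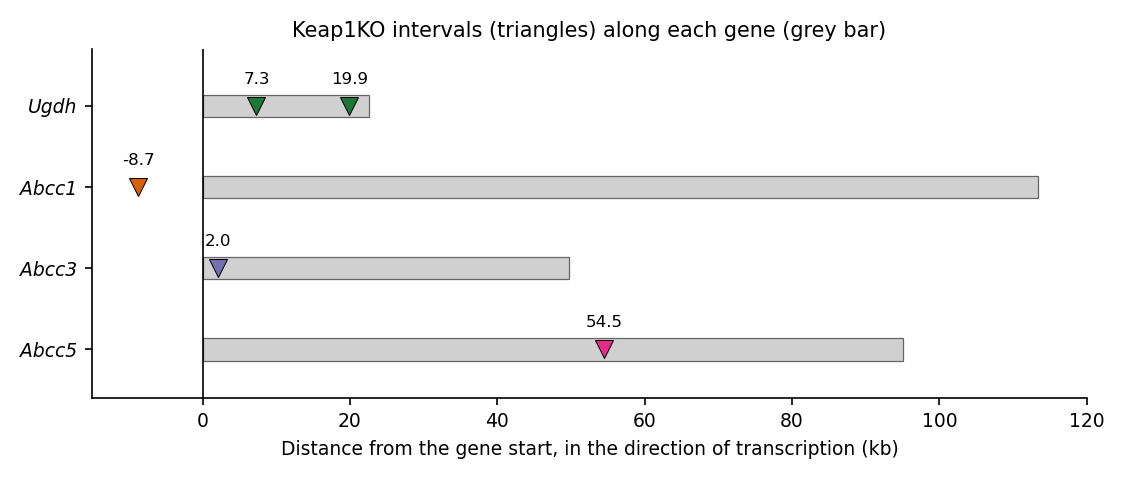
Positions of the 5 Keap1KO intervals (triangles) along Ugdh, Abcc1, Abcc3 and Abcc5 (grey bars, drawn to scale), as distance from the gene start in kb in the direction of transcription. Negative distances are upstream, as for Abcc1 at -8.7 kb, and the closest interval is that of Abcc3 at 2.0 kb.

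None of the 5 intervals lay within 1 kb of its gene's start, against 454 of all 1460 loci (31.1%) within 1 kb of the nearest start. Within 5 kb lay the Abcc3 interval alone, against 46.4% of all loci. Keap1KO interval numbers followed chromosome order in all 1651 neighbouring pairs listed on a chromosome, so a missing number shows roughly where an interval absent from the table was. In all, 1059 Keap1KO numbers were absent from it. No number is missing between the Abcc1 interval and the next listed one 2518.1 kb further on, a stretch that holds the start and the whole body of Abcc1. The stretches of 109.7 kb over the Ugdh start and 599.0 kb over the Abcc3 start also miss no number. Between the Abcc5 interval and the next one 2068.1 kb on, 3 numbers are missing, and their positions are not known.

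RefSeq promoter sequences (build GRCm38.p6) were available for 2 of the 4 genes, Ugdh and Abcc5, and are shown as the 250 bases before the start because neither window held a listed interval. Capitals mark matches of the core antioxidant response element TGACNNNGC, sought on both strands. The Ugdh window is chr5:65435843-65436092 and the Abcc5 window chr16:20426395-20426644, both on the minus strand and written 5′ to 3′.
Ugdh: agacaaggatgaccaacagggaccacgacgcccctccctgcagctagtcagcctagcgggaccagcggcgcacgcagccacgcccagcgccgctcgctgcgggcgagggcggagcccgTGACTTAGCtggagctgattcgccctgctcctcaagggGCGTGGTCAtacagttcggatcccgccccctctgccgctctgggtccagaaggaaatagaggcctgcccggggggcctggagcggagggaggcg
Abcc5: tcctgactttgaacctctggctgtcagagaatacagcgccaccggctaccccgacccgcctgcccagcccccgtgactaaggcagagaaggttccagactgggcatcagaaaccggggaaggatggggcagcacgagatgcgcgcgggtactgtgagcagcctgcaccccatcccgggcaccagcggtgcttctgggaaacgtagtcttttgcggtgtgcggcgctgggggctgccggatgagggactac

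Ugdh had 2 matches that do not overlap, TGACTTAGC on the coding strand from 132 to 124 bases before the start, and GCGTGGTCA, a match on the other strand, from 94 to 86 bases before it. Abcc5 had no match to these letters in the window, nor to the looser TGANNNNGC, which takes in every TGACNNNGC. Of all 32851 promoter windows of this length 10.2% held TGACNNNGC, and 13.4% of the 1909 windows of listed genes did. For TGANNNNGC the shares were 35.2% and 38.2%. These matches are a description of the letters and not of binding, and the sequence under the 5 intervals was not analysed here.

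Peak height was highest in Keap1KO at all 4 genes. At 99.0% of all loci Keap1KO exceeded Nrf2KO, and at 98.8% it exceeded wild-type. The height is the authors' average peak height per gene, without a stated unit. Ugdh had 26 in Keap1KO, against 3.5 in Nrf2KO and 6 in wild-type, each a mean of 2 active regions (called intervals merged between libraries). The Keap1KO height stood well above the other pair, which were 2.5 apart. Abcc1 had 32 in Keap1KO, against 3 in Nrf2KO and 9 in wild-type, and its Keap1KO and wild-type heights were the highest of the 4 genes.

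Abcc3 had 21 in Keap1KO, against 1 in Nrf2KO and 3 in wild-type. These were the lowest heights of the 4 genes in each library. Abcc5 had 25 in Keap1KO, against 2 in Nrf2KO and 4 in wild-type, between Ugdh and Abcc3. The order Abcc1, Ugdh, Abcc5, Abcc3 thus held in Keap1KO and in wild-type, while in Nrf2KO Ugdh stood above Abcc1 by 0.5. Without replicates, neighbours in the order that are 1 apart, such as Ugdh and Abcc5 in Keap1KO, cannot be ranked.

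**Figure D2:**
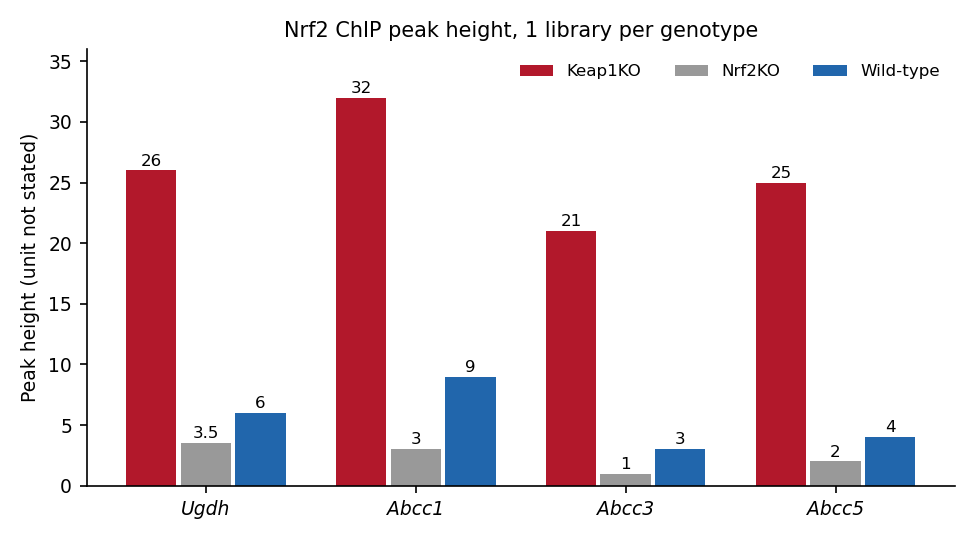
Nrf2 ChIP peak height (unit not stated) at Ugdh, Abcc1, Abcc3 and Abcc5 in the Keap1KO, Nrf2KO and wild-type libraries, each bar a single library with no error. Keap1KO heights run from 21 to 32, and no Nrf2KO or wild-type height exceeds 9.

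The mean for Ugdh hides unequal regions. The table gives 36 as the height of its taller region in Keap1KO, which with a mean of 26 leaves 16 for the other. Which of the 2 positions is the taller is not given. The ratio of 2.25 between them was reached or passed by 30 of 175 other pairs of regions in genes with 2 regions (17.1%), whose median ratio was 1.4 (quartiles 1.17 and 1.82). The taller region of Ugdh was thus higher than the Abcc1 region, and 107 of all loci had a height above it. Loci of several regions entered that count by their mean, so it sets 1 region against averages and may flatter Ugdh. In Nrf2KO and wild-type the regions summed to 7 and 12, and their split is not given.

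Against the antibody background, the signal in Keap1KO was at least 2-fold higher at 4 of 4 genes, on the scale of height plus 1 used for every ratio here. Of all loci 85.3% met that rule, so the count says little about these genes. With each library divided by its median height, the rule was met by Abcc1, Abcc3 and Abcc5 (3 of 4), while Ugdh had a log2 ratio of 0.71, and by 17.7% of all loci. The log2 ratio of Keap1KO to Nrf2KO was 2.58 for Ugdh (6.0-fold), 3.04 for Abcc1 (8.25-fold), 3.46 for Abcc3 (11.0-fold) and 3.12 for Abcc5 (8.67-fold). Their median of 3.08 compares with 1.91 over all loci (quartiles 1.29 and 2.54). All 4 genes lay above that upper quartile, with 75.4% of loci below Ugdh and 92.9% below Abcc3.

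The size of these ratios came with low Nrf2KO heights as well as high Keap1KO ones. In Nrf2KO, 3.29% of loci were lower than Abcc3, 10.3% lower than Abcc5, 22.3% lower than Abcc1 and 35.7% lower than Ugdh, and the median of all loci was 4.33. In Keap1KO, 64.9% of loci were lower than Abcc3, 78.2% lower than Abcc5, 80.6% lower than Ugdh and 88.6% lower than Abcc1, with a median of 18. Distance from starts moves with this. Over the 1006 loci more than 1 kb from a start the median Nrf2KO height was 4.0, against 7.0 over the 454 nearer ones, and the median Keap1KO to Nrf2KO log2 ratio was 2.17, against 1.29.

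Relative to wild-type, Keap1KO was again at least 2-fold higher at 4 of 4 genes, as at 88.0% of all loci. The log2 ratio was 1.95 for Ugdh (3.86-fold), 1.72 for Abcc1 (3.3-fold), 2.46 for Abcc3 (5.5-fold) and 2.38 for Abcc5 (5.2-fold). Their median was 2.16, against 1.74 over all loci (quartiles 1.3 and 2.2). Abcc3 and Abcc5 lay above the upper quartile. By average height per gene, Abcc1 was the highest of the 4 in Keap1KO and in wild-type. Its ratio was the smallest of the 4 and lay 0.01 below the median of all loci. Dividing each library by its median height shifts the median of all loci by -1.67, to 0.07. On that scale 0 of the 4 genes were at least 2-fold higher in Keap1KO, against 9.11% of all loci, and the log2 ratios were 0.77 for Abcc3, 0.67 for Abcc5, 0.23 for Ugdh and -0.02 for Abcc1, which again lay near the median.

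**Figure D3:**
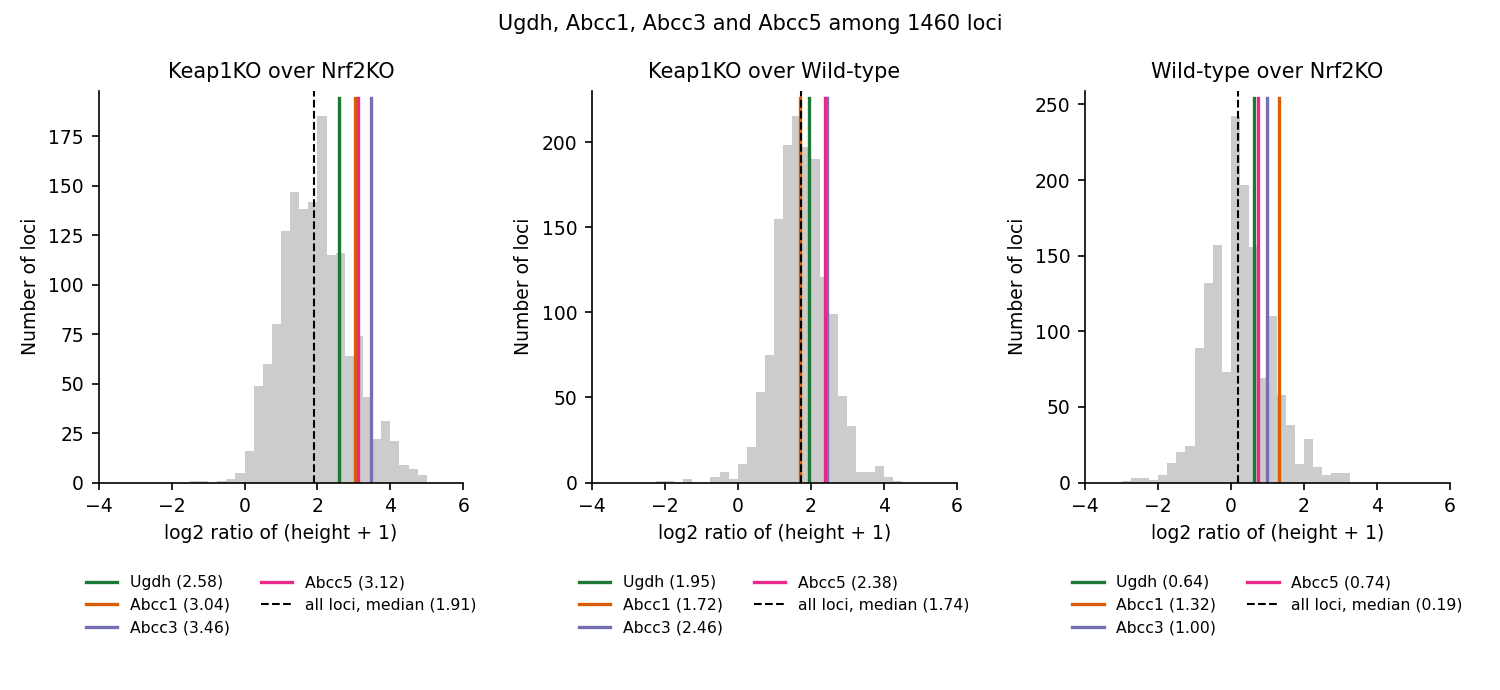
Histograms of the log2 ratio of (height + 1) over 1460 loci for Keap1KO over Nrf2KO, Keap1KO over wild-type and wild-type over Nrf2KO, with the number of loci on the vertical axis. Coloured lines mark Ugdh, Abcc1, Abcc3 and Abcc5 and the dashed line the median of all loci. The 4 genes lie above the median in the left and right panels, and Abcc1 lies at it in the middle panel.

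Wild-type exceeded Nrf2KO at 4 of 4 genes, whereas it did so at 53.8% of all loci. The log2 ratio of wild-type to Nrf2KO, positive where wild-type is higher, was 1.32 for Abcc1 (2.5-fold), 1.0 for Abcc3 (2.0-fold), 0.74 for Abcc5 (1.67-fold) and 0.64 for Ugdh (1.56-fold). Abcc1 and Abcc3 thus reached 2-fold, a rule met by 18.8% of all loci. The median of the 4 was 0.87, against 0.19 over all loci (quartiles -0.35 and 0.74).

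The difference behind those ratios was 6 height units at Abcc1 and 2 to 2.5 at the others. With a pseudocount of 5 in place of 1, 0 of the 4 genes reached 2-fold, against 3.97% of all loci. Wild-type heights of the 4 genes, 3 to 9, all lay below 10, the lowest height among the 40 wild-type loci of a single called region. For Ugdh this holds for the mean alone, since its 2 regions summed to 12 in wild-type with an unknown split. How far signals this low vary between animals was not measured.

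Loci as tall as these genes in Keap1KO give a closer background. In the range from 21 to 32 there were 356 other loci. Their median log2 ratio was 2.22 for Keap1KO over Nrf2KO, 1.94 over wild-type, and wild-type over Nrf2KO had a median of 0.26. Among the 256 of them more than 1 kb from a start, the medians were 2.4, 2.05 and 0.32, and wild-type exceeded Nrf2KO at 63.7%. Against these 256, the upper quartile of Keap1KO over Nrf2KO was 2.91, which Abcc1, Abcc3 and Abcc5 exceeded and Ugdh, at 2.58, did not. For Keap1KO over wild-type it was 2.46, the same as Abcc3 when rounded, and Abcc5 (2.38), Ugdh and Abcc1 lay below it. Both ranges were chosen after the values were seen.

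The loci most like each gene in their 3 heights were then looked up. Likeness was the largest difference in log2 (height + 1) over the 3 libraries, and the 3 nearest loci were taken for each gene. A locus of several regions entered by its mean height, as did Ugdh, whose regions had 36 and 16 in Keap1KO. Nearest to Ugdh was Gsr, which encodes glutathione reductase, with 27 in Keap1KO, against 3.5 in Nrf2KO and 5.5 in wild-type, a largest difference of 0.11, followed by Bnip3 and Eri3 (0.15 each). Nearest to Abcc1 was Hmgcll1, with 31 in Keap1KO, against 3 in Nrf2KO and 10 in wild-type (0.14), then Arntl (0.22) and Ahnak (0.29). Elp3 had the very heights of Abcc3, and Gm11292 (0.07) and 2610035D17Rik (0.14) followed. Nearest to Abcc5 was Kcnj6 (0.05), then the locus of Fosl1 and Ccdc85b (0.11) and St3gal3 (0.18). These matches describe heights in 3 libraries alone.

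A list of 49 genes, drawn up by family and pathway name for glucuronidation and export, had 5 in the table (10.2%). The share was 7.67% of 21900 protein-coding genes in RefSeq. The share of the list is near that background, and 4 of the 5 are the genes described here, which were chosen from the table. Of 8 genes grouped there under UDP-glucuronate supply, Ugdh alone was in the table. None of the 23 grouped as transferases and hydrolase was, 22 Ugt genes and the glucuronidase gene Gusb. Nor was any of 7 grouped as other multidrug exporters, such as Abcb1a, Abcb1b and Abcg2. The groups go by name, and the function of each gene in them was not checked. Of 11 Abcc family genes 4 were listed (36.4%), Abcc1, Abcc3, Abcc5 and Abcc12.

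Abcc12 encodes a less studied pump of the family. Its interval on chromosome 8 at position 86501440 lay 3401 bp beyond the gene's end and was listed under no other gene. It had heights of 20 in Keap1KO, against 1 in Nrf2KO and 4 in wild-type, close to those of Abcc3. Keap1KO was 10.5-fold above Nrf2KO and 4.2-fold above wild-type there, and wild-type was 2.5-fold above Nrf2KO. The 4 listed Abcc genes, 3 of them chosen from the table, had Keap1KO heights of 20 to 32 and Nrf2KO heights of 1 to 3. Each had its interval beyond 2 kb from the gene start. Over all loci the quartiles were 14.0 and 23.4 in Keap1KO and 3.0 and 7.0 in Nrf2KO. In Keap1KO Abcc1 and Abcc5 lay above the upper quartile, and Abcc3 and Abcc12 between the quartiles. Their Nrf2KO heights were all at or below the lower quartile. Intervals beyond 2 kb were common, since the median distance of all loci to the nearest start was 6106 bp.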

How the data were processed

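The submitters' processing notes list BWA, MACS2 2.1.0 and the build mm10; settings, read length, depth and any scaling of the libraries have no source here. The deposited table gives, per the file headers, the signal of each ChIP library as an average peak height per gene, flags for called intervals, interval distances to the gene start, and the height of the tallest region. In genes with 1 active region, 100% of 5043 heights were exactly whole. Since sequencing depth is unknown, heights carry no counting interval.

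Intervals (1727) were merged to the stated number of active regions (1684, largest distance merged 704 bp). Regions under exactly the same genes formed 1460 loci, whose heights were solved from the gene means by least squares (largest residual 0.004). Python 3.11.15, numpy 2.4.6 and pandas 2.3.3 were used. The solving step was checked on simulated heights, 1 per locus under the same grouping. That check does not cover the merging of intervals or unequal regions within a locus. Log2 ratios used a pseudocount of 1, so changes at low loci are understated, and 2-fold describes size only. Since 99.2% of loci carry a Keap1KO call, its ratios are selected upwards. Gene identifiers were matched to RefSeq (GRCm38.p6), whose ends differed from the table's by at most 105 bp at the 4 genes.

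The genes described, the gene list and the rules were chosen with earlier results of these data known. Named genes were the 4 genes, listed genes of the list, genes sharing an interval (there were none) and the 3 most alike loci for each.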

Additional observations from a re-analysis of the deposited data

How the results depend on the processing

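No paired analysis was possible because there were no replicates, and for the same reason no library could be left out. A pseudocount of 5, which shrinks ratios by construction, gave the 4 genes a median log2 ratio of 2.11 for Keap1KO over Nrf2KO, against 3.08, and left 0 of them at least 2-fold higher in wild-type than in Nrf2KO, where 3.97% of all loci stayed. Each library divided by its median height over all loci (times 5, the middle of the 3 medians) gave medians of 1.21 for Keap1KO over Nrf2KO, with 3 of the 4 genes and 17.7% of all loci at least 2-fold higher, and 0.45 for Keap1KO over wild-type, with 0 genes and 9.11% of all loci. For wild-type over Nrf2KO, 1 gene and 13.3% of all loci were at least 2-fold higher. Abcc1 came to -0.02 for Keap1KO over wild-type, near the shifted median of all loci (0.07). That scaling shifts the medians of all loci by -1.84, -1.67 and, for wild-type over Nrf2KO, -0.18 by construction, and is not a measure of depth. With 5 kb in place of 1 kb, 1 interval lay near a start.

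A pseudocount of 0.5 moved none of the members' values by 1.5-fold. Taking 1 value per gene row could not move them, because each of their intervals is listed under a single gene. Neither did a stricter call or any height of at least 12 change which libraries were called. The filter on mean height kept 3 of the 4 genes, so it gives no value over them. Loci more than 1 kb from a start and loci not called in wild-type were chosen after seeing the data. They gave 93.9% and 85.8% of loci at least 2-fold for Keap1KO over Nrf2KO, 93.3% and 89.2% for Keap1KO over wild-type, and 23.6% and 17.6% for wild-type over Nrf2KO. Unknown depth limits every ratio between libraries.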

Other observations

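5 further genes of the ABC transporter family outside the Abcc branch were in the table. They were picked after their values were seen, and belong to no list. Abcb6, a porphyrin transporter, had 35 in Keap1KO, against 9 in Nrf2KO and 7 in wild-type at an interval 891 bp into the gene that is also listed under Zfand2b and Atg9a. Its Nrf2KO height was above those of the 4 listed Abcc genes, and wild-type lay below Nrf2KO there. Abca8b had 14 in Keap1KO, with 3 in Nrf2KO and 3 in wild-type. Abcd3, a peroxisomal fatty acid transporter, had 19 in Keap1KO, against 2 in Nrf2KO and 4 in wild-type at an interval 4302 bp beyond its end. Abcb9, a lysosomal peptide transporter, had 17 in Keap1KO, against 4 in Nrf2KO and 2 in wild-type, 9484 bp beyond its end. Abcg4 had 17 in Keap1KO, against 5 in Nrf2KO and 5 in wild-type at an interval also listed under Nlrx1. Wild-type exceeded Nrf2KO at Abcd3, equalled it at Abca8b and Abcg4, and was lower at Abcb6 and Abcb9. Over all loci it was higher at 53.8%.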
